A study of Mus musculus with 2 samples.

Results

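The variable (V) segments of the T cell receptor alpha and beta chains were the 163 genes of the count table whose symbols start with Trav or Trbv, out of 32285 genes in all. They comprised 35 Trbv segments on chromosome 6 and 128 Trav segments on chromosome 14. The annotation lists 13 of the Trbv and 20 of the Trav segments as pseudogenes, and 10 Trav segments carry "dv" in the symbol because they can also join the delta chain. They were counted in T cells, defined as barcodes with at least 2 UMIs summed over Cd3d, Cd3e and Cd3g and no UMI of Cd79a, a B cell receptor component.

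The study sorted natural killer progenitors (NKP) from mouse bone marrow with a gate that kept CD122+ cells without lineage markers, Ncr1, NK1.1, c-kit or Sca-1, and profiled them with droplet 3' single-cell RNA counting. There was 1 library from wild-type C57BL/6 mice (WT) and 1 from Irf4-/- mice, which lack a transcription factor of lymphocyte activation. The sources used here do not state the age, sex or number of the mice, or what the Irf4 allele removes. With 1 library per genotype no difference has a replicate check and none was tested. Every interval below is a 95% interval that covers counting error only.

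Against the name of the sort, most kept barcodes were T cells by their CD3 transcripts: 6648 of 7955 in the library labelled Irf4-/- and 11119 of 12367 in the library labelled WT, with medians of 9908 and 7244 UMIs. Cd3d was detected in 99.9% and 99.7% of these cells. Ncr1, a natural killer receptor excluded by the gate, was detected in 0.406% and 0.0809%. Klrb1c, the gene of NK1.1, which the gate also excluded, was detected in 12.3% and 5.34%. Of other natural killer genes, Eomes was detected in 44.1% and 36.2% and Tyrobp in 14.5% and 5.23% of cells. Of B cell genes outside the gate, Ighm was detected in 76.2% and 72.3% and Cd79b in 12.8% and 11.2% of cells. Irf4 went against the labels, with 192 UMIs (2.65 CPM) in T cells of the library labelled Irf4-/- against 95 UMIs (1.09 CPM) in those of the WT library. Since a 3' count need not test a deletion elsewhere in the gene, the genotype could not be checked, and each library is named below by its label. Where values come in pairs, the library labelled Irf4-/- comes first. The libraries shared 27 barcodes, 21 of them among the T cells.

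Each T cell builds its receptor from segments chosen in its own genome. A V segment is joined to a J segment in the alpha chain, or to a D and a J segment in the beta chain, and the joined exon is spliced to the constant gene, Trac for alpha and Trbc1 or Trbc2 for beta. The V segment carries part of the surface that meets peptide and major histocompatibility complex, and a conserved cysteine near its end marks the start of the CDR3 loop. The alpha and delta loci are nested, so that some V segments can serve either chain, and joining an alpha chain deletes the delta constant gene Trdc on that chromosome. Beta chains are under allelic exclusion, whereas the alpha locus often rearranges on both chromosomes of a cell.

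How well a segment can be counted depends on how much it differs from its copies, since reads that match several genes equally well cannot be assigned to one of them. The ends of 5 sets of segments are printed here because the results below turn on them: 90 bases up to and including the codon of the conserved cysteine, 5′ to 3′ on the coding strand, from the GENCODE M21 transcripts (build GRCm38). Capitals mark bases that differ from the first member of the set. The sets are the delta-capable Trav13-4-dv7 with its d and n copies, the delta-capable Trav15 segments, Trav3-3 with copies that had no UMI, the Trav11 segments of invariant natural killer T cells, and the pair of Trbv12 genes.
Trav13-4-dv7: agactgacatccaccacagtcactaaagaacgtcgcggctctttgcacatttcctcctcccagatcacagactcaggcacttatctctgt
Trav13d-4: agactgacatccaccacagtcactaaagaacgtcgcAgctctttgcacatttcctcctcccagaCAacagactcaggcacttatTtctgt
Trav13n-4: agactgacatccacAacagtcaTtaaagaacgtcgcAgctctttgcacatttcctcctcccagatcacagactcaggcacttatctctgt
Trav15-2-dv6-2: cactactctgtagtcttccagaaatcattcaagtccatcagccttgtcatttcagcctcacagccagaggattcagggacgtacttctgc
Trav15-1-dv6-1: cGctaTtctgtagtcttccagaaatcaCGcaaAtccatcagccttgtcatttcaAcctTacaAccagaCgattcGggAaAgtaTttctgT
Trav15d-1-dv6d-1: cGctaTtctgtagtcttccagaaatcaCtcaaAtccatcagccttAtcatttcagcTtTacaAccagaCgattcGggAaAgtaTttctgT
Trav3-3: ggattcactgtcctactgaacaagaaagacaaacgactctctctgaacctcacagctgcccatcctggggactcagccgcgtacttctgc
Trav3n-3: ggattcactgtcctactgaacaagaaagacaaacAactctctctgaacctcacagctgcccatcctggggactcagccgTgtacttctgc
Trav3d-3: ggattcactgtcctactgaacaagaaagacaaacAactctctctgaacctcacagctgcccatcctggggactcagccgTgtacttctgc
Trav11: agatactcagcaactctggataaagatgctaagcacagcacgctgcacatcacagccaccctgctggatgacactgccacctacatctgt
Trav11d: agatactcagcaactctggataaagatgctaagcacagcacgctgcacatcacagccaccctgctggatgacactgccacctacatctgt
Trav11n: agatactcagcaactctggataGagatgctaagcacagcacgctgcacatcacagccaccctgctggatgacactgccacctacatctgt
Trbv12-2: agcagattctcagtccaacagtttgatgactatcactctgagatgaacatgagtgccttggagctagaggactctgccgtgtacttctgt
Trbv12-1: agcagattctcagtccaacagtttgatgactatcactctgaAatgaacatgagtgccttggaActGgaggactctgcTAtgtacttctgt

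These genes lie on the plus strand: Trav13-4-dv7 (ENSMUSG00000094562) at chr14:53757356-53757921, Trav15-2-dv6-2 at chr14:53649404-53649994, Trav15-1-dv6-1 at chr14:53559632-53560247, Trav3-3 at chr14:53665929-53666506, Trav11 at chr14:53519303-53519859 and Trbv12-2 at chr6:41118851-41119364. Trav13d-4 and Trav13n-4 differ from Trav13-4-dv7 at 4 and 3 of the printed bases, and the other Trav15 segments differ from Trav15-2-dv6-2 at 14 each. Trav11 and Trav11d are identical over all 333 compared bases up to the cysteine codon. A motif of a tyrosine codon (TAC or TAT), any codon (NNN) and a cysteine codon (TGC or TGT) was found on the coding strand in the last 60 bases of 108 of 108 Trav genes and 20 of 22 Trbv genes, and in 15 of 20 and 5 of 13 pseudogenes.

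Cutting each segment into windows of 60 bases, 39 Trav segments had no window that was absent from every other V segment. Of these, 36 had no UMI in either library, and the other three held 13 UMIs together. Trav11, Trav11d, Trav3n-3 and Trav3d-3 were among the 39, so a count of 0 for such a segment does not show that it is unused. Every window of the 35 Trbv segments was unique, as it was for 11 Trav segments. The remaining 78 Trav segments had some unique windows and held 10676 UMIs.

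V transcripts were found at closely similar levels in both libraries. Trbv segments had 4578 UMIs in the library labelled Irf4-/-, 0.633 per 10000 UMIs (interval 0.614 to 0.651), and 5754 UMIs in the library labelled WT, 0.659 per 10000 (0.642 to 0.676). The log2 ratio, Irf4-/- over WT, was -0.06 (-0.12 to -0.00251). Trav segments without dv had 4027 and 5017 UMIs, a log2 ratio of -0.05 (-0.11 to 0.01), and those with dv had 1113 and 1424 UMIs, a log2 ratio of -0.08 (-0.20 to 0.03). All 3 ratios were close to the median over 13283 genes with at least 20 UMIs, 0.01.

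V UMIs were few beside those of the constant genes, which lie nearer the transcript end that a 3' library reads. There were 3.20 and 3.24 Trbv UMIs per 100 UMIs of Trbc1 and Trbc2, and 11.9 and 12.1 Trav UMIs per 100 UMIs of Trac and Trdc. A Trbv UMI was found in 44.0% and 36.1% of T cells, and any V UMI in 65.0% and 56.4%, with the higher share in the deeper library. After thinning each cell to 2000 UMIs, with 7 and 23 cells below that depth left out, the shares of cells with a Trbv UMI were 11.9% and 12.8%. Among 988 and 842 B cells (at least 2 Cd79a UMIs, no CD3 UMI, median depth 4148 and 2971), 0.405% and 0.119% had a V UMI, from 4 and 1 UMIs.

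Of the other genes of receptor assembly and signalling, 28 of the 32 listed were in the table and 22 had at least 20 UMIs. Trac (log2 ratio -0.02), Trbc2 (0.00) and Cd3e, a signalling chain (-0.03), were close to equal between the libraries. Of these 22, 4 genes were over 1.5-fold higher in the library labelled Irf4-/-, against 6.37% of all 13283 genes. Lower by that fold were 3, against 4.68% of all genes. Tcrg-C2 and Tcrg-C4, gamma chain constant genes, were at log2 ratios of 0.86 and 0.68. Trdv4 was at 0.99, and Tcrg-C3 at 0.65 on 13 and 10 UMIs. Cd8b1, the beta chain of the CD8 coreceptor, was at -1.07. Cd4 was at -1.35 on 28 and 86 UMIs, and Dntt at -4.43 on 1 and 26 UMIs. The recombinase genes Rag1 and Rag2 had 2 and 0 UMIs against 2 and 1, and Ptcra, the surrogate alpha chain of thymocytes, had 10 and 18.

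Within the beta chain the UMIs were spread over many segments, with similar shares in both libraries. Of the 35 Trbv segments, 10 had no UMI in either library, 2 had UMIs in 1 library, and 21 reached 20 UMIs in total and held 99.7% of the UMIs. The 10 most used took 75.9% and 75.2%. The effective number of segments, the inverse of the summed squared shares, was 14.6 and 14.9. Shares between segments also depend on how each transcript is captured and aligned, so they are best read segment by segment across cells.

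Trbv12-2 had the largest share, with 513 of 4578 UMIs (11.2%, 10.3 to 12.2) under the label Irf4-/- and 596 of 5754 (10.4%, 9.58 to 11.2) under the label WT. Trbv2 followed with 9.70% and 9.23%, then Trbv13-2 with 8.41% and 8.90%, Trbv3 with 8.65% and 8.55%, and Trbv1 with 7.97% and 7.39%. The intervals of neighbours in this order overlap in both libraries, though not every share lies within its neighbour's interval. The 3 Trbv13 segments, whose products bind staphylococcal enterotoxin B, together took 19.4% and 21.2%, and the Trbv12 segments 16.1% and 15.7%. Trbv31, the inverted segment that lies on the minus strand beyond the constant genes, took 1.29% and 1.81%.

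**Figure D1:**
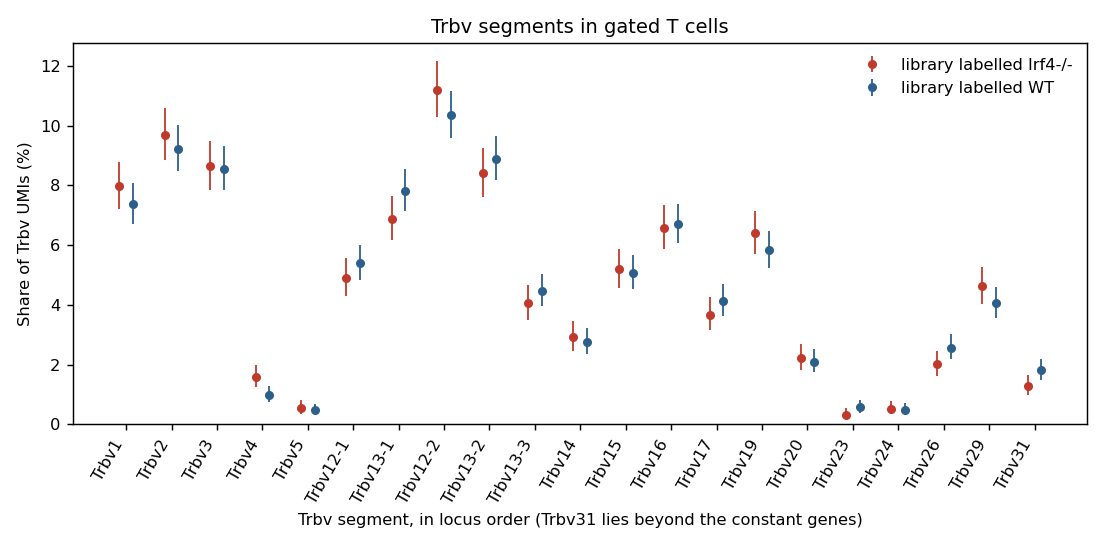
Share of Trbv UMIs in T cells (vertical axis, percent) for the 21 Trbv segments with at least 20 UMIs, in their order along the locus, with 95% counting intervals. The 2 libraries follow each other across the locus, from Trbv12-2 at 11.2% and 10.4% down to Trbv23 at 0.328% and 0.574%.

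By CPM over all T cells, 1 of the 21 Trbv segments and 3 of the 65 Trav segments with at least 20 UMIs were over 1.5-fold higher in the library labelled Irf4-/-, against 6.37% of all 13283 genes. Lower by the same fold were 1 Trbv and 7 Trav segments, against 4.68% of all genes. The median log2 ratio of the 86 segments was -0.07. The Trbv segments thus had 1 call each way, and 7 of 65 Trav segments is a larger share than that of all genes. The genes compared were not matched to the segments for count. The Trav segments with the lowest ratios had few UMIs, such as Trav1 with 5 and 25 and Trav13n-3 with 6 and 21. The larger share is therefore not read as a trait of Trav segments.

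Of the 21 Trbv segments, Trbv4 and Trbv23 differed by over 1.5-fold in share. Trbv4 had 73 UMIs (1.59%) in the library labelled Irf4-/- against 57 (0.991%) in the other, at a log2 ratio of 0.69 (0.17 to 1.21). Counting each cell once, for its segment with most UMIs, the ratio was 0.55 (-0.04 to 1.14). Trbv23 had 15 and 33 UMIs, a log2 ratio of -0.81 (-1.79 to 0.11). Trbv31 was the other segment whose interval did not cover 0, at -0.49 (-0.97 to -0.01), with 49 and 92 positive cells.

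The alpha chain repertoire was broader. Of the 128 Trav segments, 46 had no UMI in either library and 65 reached 20 UMIs, holding 98.9% of the UMIs. The 10 most used took 48.4% and 47.7%, and the effective number of segments was 29.7 and 31.1. Trav3-3 had 408 UMIs (7.94%) in the library labelled Irf4-/- and 465 (7.22%) in the library labelled WT, and Trav16 had 386 (7.51%) and 465 (7.22%). Next were Trav13-4-dv7 with 7.02% and 6.27%, Trav16n with 4.57% and 4.47%, Trav12-2 with 4.49% and 4.44% and Trav13-1 with 4.07% and 4.74%.

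By family, the 12 Trav13 segments took 15.7% and 16.3%, the 3 Trav16 segments 13.0% and 12.6%, and the 9 Trav14 segments 10.9% and 10.7%. The mouse locus holds copied arrays whose segments are marked d or n. The 39 d segments took 8.35% and 7.86%, the 34 n segments 11.98% and 12.2%, and the 55 unmarked ones 79.7% and 79.9%. Since many copies cannot be told apart by their reads, these shares describe the assigned UMIs.

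Across all 128 Trav segments the shares of the 2 libraries had a Pearson correlation of 0.990, and across the 35 Trbv segments 0.994, given as descriptions over genes counted in the same way. Of the 65 Trav segments, 4 were over 1.5-fold higher and 6 over 1.5-fold lower in share in the library labelled Irf4-/-, most of them on few UMIs. Trav9-4 was the best covered, with 98 UMIs against 79 and a log2 ratio of 0.64 (0.19 to 1.08). It came from 56 and 57 cells, and 1 cell held 12 of its UMIs. Counting each cell once gave 0.67 (-0.04 to 1.40), and thinning to 2000 UMIs turned the ratio to -0.41 (-1.64 to 0.72).

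Trav1 had the lowest ratio, with 5 UMIs in 5 cells of the library labelled Irf4-/- and 25 UMIs in 19 cells of the library labelled WT, a log2 ratio of -1.996 (-3.74 to -0.59) and, by cells, of -1.17 (-2.97 to 0.35). Trav4-2 had the highest, 1.46, from 22 UMIs in 11 cells and 10 UMIs in 9 cells. Just inside the 1.5-fold limit were Trav7-6 at -0.58 and Trav12-3 at 0.55.

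**Figure D2:**
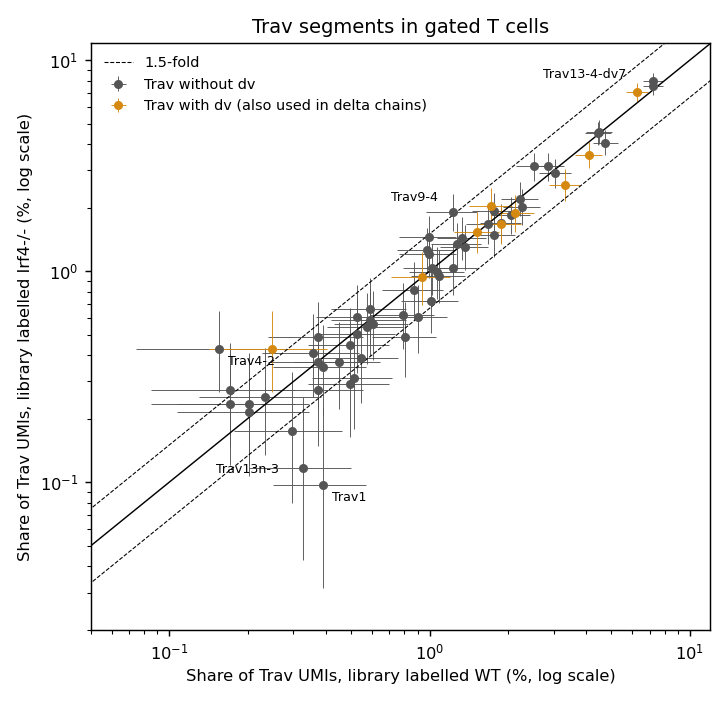
Share of Trav UMIs in T cells of the library labelled WT (horizontal, percent, log scale) and of the library labelled Irf4-/- (vertical, percent, log scale) for the 65 Trav segments with at least 20 UMIs, with 95% counting intervals. Points lie along the line of equal share, and those outside the dashed 1.5-fold lines, such as Trav1 and Trav4-2, mostly have shares under 1%.

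UMIs per positive cell differed between segments. Trav4-4-dv10 had 2.03 UMIs in each of its 65 positive cells of the library labelled Irf4-/- on average, and 2.57 in each of 83 cells of the library labelled WT, with up to 9 and 12 in 1 cell. Trav15d-1-dv6d-1 had 1 UMI in each of its 22 and 16 cells. Trav22, an annotated pseudogene without the cysteine codon motif, had 37 UMIs in 37 cells and 65 UMIs in 62 cells. The median over the 65 Trav segments was 1.52 and 1.41 UMIs per positive cell, and over the 21 Trbv segments 1.37 and 1.25.

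Most Trav UMIs came from segments within 800 kb of the constant gene, and the bin at 500 to 800 kb held more than the nearer one. Among T cells with fewer than 2 Trdc UMIs, the 15 segments 200 to 500 kb upstream of Trac held 20.3% and 19.5% of Trav UMIs, and the 30 segments at 500 to 800 kb held 54.2% and 55.3%. Farther out the share was 14.0% and 13.7% over the 36 segments at 800 to 1133 kb, 8.69% and 8.18% over the 37 segments at 1133 to 1500 kb, and 2.75% and 3.26% over the last 10. The third bin holds the n copies, of which 20 had no UMI, and the fourth most d copies, of which 19 had none. Of the segments at 0 in these bins, 17 of 21 and 18 of 19 had no unique window, so their low shares are in part not countable. The bins were chosen after the values were seen.

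Cells with at least 2 Trdc UMIs, which carry transcripts of the delta constant gene, used a different set of Trav segments. The libraries labelled Irf4-/- and WT held 845 and 1388 such cells, whose median depth was 8570 and 5967 UMIs, where the other T cells had 10098 and 7379. Segments with dv made up 71.9% (68.4 to 75.3) and 72.5% (69.3 to 75.6) of their Trav UMIs, against 14.1% and 14.9% in the other T cells. Per 10000 UMIs the dv segments were at 0.587 and 0.601 against 0.0981 and 0.108, log2 ratios of 2.58 (2.41 to 2.75) and 2.47 (2.32 to 2.63). Trav segments without dv were lower, by log2 ratios of -1.38 and -1.44, and so were Trbv segments, by -1.04 and -0.99.

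A single segment carried much of this. Trav13-4-dv7 had 286 of its 361 UMIs in Trdc cells of the library labelled Irf4-/- and 334 of 404 in those of the library labelled WT. There it took 42.5% (38.7 to 46.3) and 41.5% of Trav UMIs, against 1.68% and 1.24% in the other T cells, log2 ratios of 4.66 (4.29 to 5.05) and 5.06 (4.69 to 5.46). Its copies Trav13d-4 and Trav13n-4, printed above, which are 97.8% and 92.8% identical to it over the compared bases, had 14 and 34 UMIs over all T cells labelled Irf4-/-, and 24 and 38 over those labelled WT. Of Trav13n-4, 1 and 0 UMIs were in Trdc cells.

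The Trav15 segments with dv6 in the name showed the same pattern. Trav15-2-dv6-2 took 11.7% and 10.6% of Trav UMIs in Trdc cells against 0.403% and 0.922% elsewhere, and Trav15-1-dv6-1 took 9.36% and 10.6% against 0.515% and 0.639%. Trav15d-1-dv6d-1 took 2.38% and 1.24%, against 0.134% and 0.106%. Trav21-dv12 was higher to a smaller extent, 3.57% and 3.98% against 1.23% and 1.17%, log2 ratios of 1.53 and 1.77. For the first 3, 62.0% to 81.4% of their UMIs lay in Trdc cells, and for Trav21-dv12 30.4% and 32.7%.

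The other dv segments with at least 20 UMIs followed the opposite pattern. Trav4-4-dv10 took 1.34% and 1.87% in Trdc cells against 2.75% and 3.51% elsewhere, log2 ratios of -1.04 (-2.20 to -0.07) and -0.91 (-1.78 to -0.16). Trav6-7-dv9 had ratios of -2.15 and -1.05, and Trav14d-3-dv8 of -3.97 and -1.93. Trav16d-dv11 had 0 and 1 UMIs in Trdc cells, with intervals up to 0.547% and 0.691% of Trav UMIs, against 48 and 59 UMIs (1.07% and 1.05%) elsewhere. Thus 5 of the 9 measured dv segments were higher in Trdc cells and 4 were lower, in both libraries. The tenth, Trav15d-2-dv6d-2, had no UMI, but it had no unique window either, so this does not show that it is unused.

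Trav22 was the 1 segment without dv that was over 1.5-fold higher in share in Trdc cells of both libraries. It took 3.27% and 3.86% of Trav UMIs there, against 0.336% and 0.603% elsewhere, log2 ratios of 3.28 (2.27 to 4.33) and 2.68 (1.93 to 3.42). It is the measured Trav segment nearest to the delta and alpha constant genes, 293 kb upstream of Trac, and 22 and 31 of its UMIs came from Trdc cells. Among Trbv segments the pseudogene Trbv24 was higher in share, on 7 and 6 UMIs in Trdc cells, with log2 ratios of 2.72 (1.21 to 4.06) and 2.12 (0.53 to 3.47). Trbv29, at -1.70 and -0.83, was lower, with 4 and 8 UMIs, and its interval covered 0 in at least 1 library.

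Trav3-3, among the most used segments over all T cells, was low in Trdc cells. It had 5 UMIs in each library there, 0.743% and 0.622% of Trav UMIs against 9.02% and 8.16%, log2 ratios of -3.60 (-5.23 to -2.37) and -3.71 (-5.34 to -2.48). Trav14-3 had 0 and 4 UMIs in Trdc cells against 113 and 139 elsewhere. Trav16 took 5.50% and 2.49% against 7.81% and 7.89%, and Trav14-2 took 2.53% and 2.36% against 3.22% and 2.91%, within 1.5-fold in both libraries.

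By CPM, 7 Trav segments and 1 Trbv segment were over 1.5-fold higher in Trdc cells of both libraries, against 3.41% of all genes, and 5 of the 7 were dv segments. Lower by that fold in both libraries were 47 of 65 Trav and 15 of 21 Trbv segments, against 2.89% of all genes. The cells were chosen by Trdc, which shares its locus with Trav, so these counts describe that choice.

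**Figure D3:**
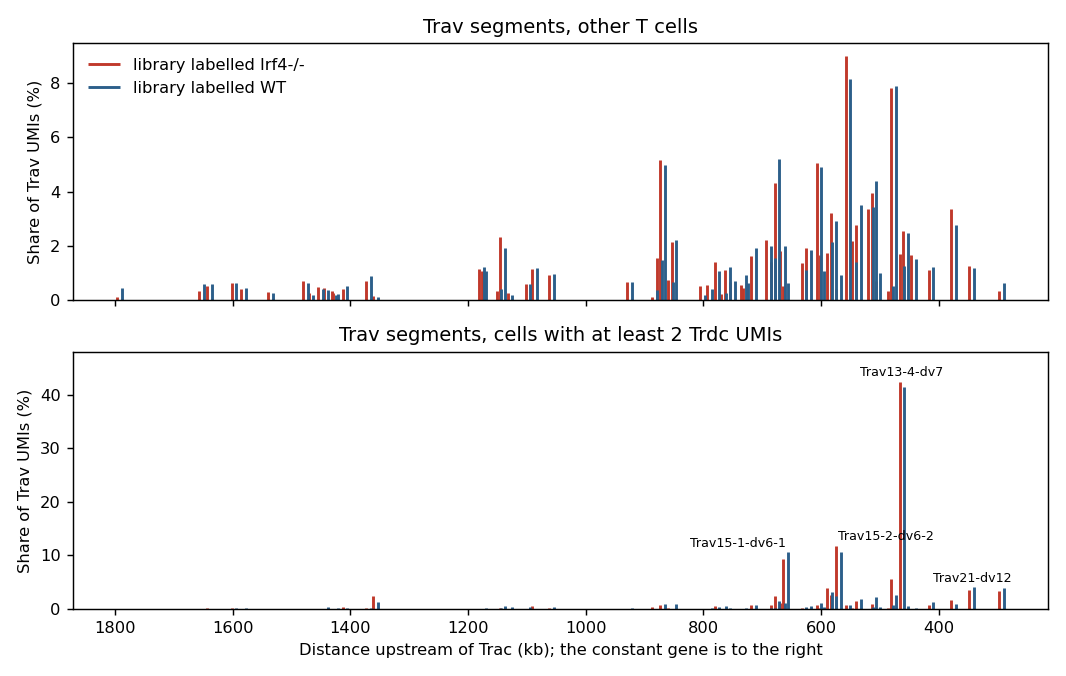
Share of Trav UMIs (vertical axis, percent) for the 65 Trav segments with at least 20 UMIs by their distance upstream of Trac (horizontal axis, kb), in T cells with fewer than 2 Trdc UMIs (upper panel) and in cells with at least 2 (lower panel, with another vertical scale); the libraries are drawn slightly apart so that both show. In the lower panel Trav13-4-dv7 reaches 42.5% and 41.5%, while many segments seen in the upper panel are near 0.

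The dv share was higher at each step in the number of Trdc UMIs per cell. It was 14.0% and 14.7% at 0 Trdc UMIs, 19.1% and 25.2% at 1, 38.4% and 47.0% at 2 to 3, 65.8% and 72.6% at 4 to 7, and 79.3% and 79.9% at 8 or more. Trav13-4-dv7 went from 1.67% and 1.22% to 52.2% and 53.4% over the same bins. Trac was detected in 96.7% and 93.6% of cells at 0 Trdc UMIs and in 44.2% and 42.5% at 8 or more. At 1 Trdc UMI, where Trac was in 85.4% and 85.0% of cells, Trav13-4-dv7 had 2 and 3 UMIs.

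**Figure D4:**
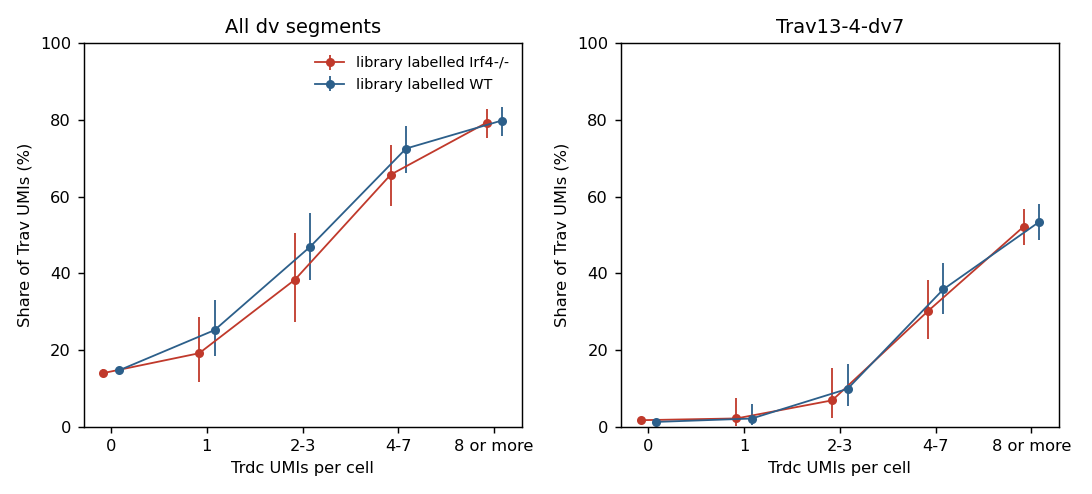
Share of Trav UMIs (vertical axis, percent, with 95% counting intervals) taken by all dv segments (left) and by Trav13-4-dv7 (right) in T cells binned by Trdc UMIs per cell (horizontal axis). Both libraries climb across the bins, dv segments from 14.0% and 14.7% to 79.3% and 79.9%.

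Trdc cells were also split by Trac, a split chosen after the values were seen. In the 474 and 797 Trdc cells with no Trac UMI, dv segments took 83.2% (78.8 to 87.1) and 84.6% of Trav UMIs, and in the 371 and 591 with one they took 60.8% (55.3 to 66.0) and 61.5%. Trav segments without dv stood at 0.141 and 0.129 per 10000 UMIs in the former and 0.312 and 0.317 in the latter. Trbv UMIs followed, at 0.241 and 0.294 against 0.405 and 0.401 per 10000, in 15.2% and 12.7% against 31.3% and 24.9% of cells. The cells with Trac were deeper, with medians of 9712 and 7134 UMIs against 7843.5 and 5491, and the part of depth or of joined barcodes in this was not tested.

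Cells positive for Cd8b1 (at least 1 UMI) were 42.9% of T cells in the library labelled Irf4-/- and 60.2% in the library labelled WT. Trbv levels in them were close to those of the other T cells, at log2 ratios of -0.09 (-0.17 to -0.00154) and -0.14 (-0.21 to -0.06). By UMIs, no Trbv segment differed in share by over 1.5-fold in the same direction in both libraries. Trbv16 came nearest, at log2 ratios of 0.33 (-0.01 to 0.66) and 0.69 (0.35 to 1.04). Counting each cell once, it was just past 1.5-fold higher in both, at 0.59 (0.15 to 1.03) and 0.64 (0.24 to 1.06). By CPM, 0 Trbv and 5 Trav segments were over 1.5-fold higher in both libraries, against 2.51% of all genes, and 0 Trbv and 7 Trav segments were lower, against 4.70%.

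Higher in share in Cd8b1-positive cells was Trav14d-3-dv8, with 70 and 94 UMIs, 2.95% and 2.31% of Trav UMIs against 1.26% and 0.716% in the other T cells. Its log2 ratios were 1.23 (0.62 to 1.86) and 1.69 (0.93 to 2.53). Trav14n-3 stood at 0.94 (0.32 to 1.58) and 1.32 (0.68 to 2.01), and Trav12-3 at 0.81 (0.11 to 1.53) and 1.34 (0.41 to 2.38). At a threshold of 2 Cd8b1 UMIs the ratio of Trav14n-3 in the WT library was 0.43 (-0.09 to 0.97), within 1.5-fold. Without the Trdc cells the ratios of Trav14d-3-dv8 were 0.96 (0.35 to 1.59) and 1.41 (0.63 to 2.27), and those of Trav14n-3 were 0.69 (0.07 to 1.33) and 0.90 (0.25 to 1.59). Those of Trav12-3 were 0.53 (-0.17 to 1.25) and 1.08 (0.12 to 2.17). Trav14d-3-dv8 is thus a dv segment by name that was higher in CD8 beta-positive cells and lower in Trdc cells.

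Of the 6 Trav segments over 1.5-fold lower in share in Cd8b1-positive cells of both libraries, 5 were among those higher in Trdc cells. Trav13-4-dv7 stood at -1.96 (-2.37 to -1.57) and -2.32 (-2.66 to -1.997), Trav15-1-dv6-1 at -2.70 and -2.44, and Trav15-2-dv6-2 at -3.25 and -1.09. When cells with at least 2 Trdc UMIs were left out of both sides, Trav13-4-dv7 stood at 0.17 (-0.52 to 0.87) and 1.17 (0.26 to 2.20), so its direction turned. Trav15-1-dv6-1 stood at -1.87 (-3.66 to -0.39) and -0.94 (-1.96 to 0.09), and Trav15-2-dv6-2 at -1.83 (-3.89 to -0.16) and -0.54 (-1.39 to 0.33), so both remained below 0. Also without Trdc cells, Trav21-dv12 stood at -0.72 (-1.58 to 0.11) and -0.93 (-1.67 to -0.18), still over 1.5-fold lower in both. Trav22 stood at 0.17 (-1.49 to 1.87) and -0.59 (-1.64 to 0.51). The sixth segment, Trav9-1, was lower in Trdc cells as well, with 0 and 1 UMIs there. Its ratios in Cd8b1-positive cells were -1.44 and -0.89, and without Trdc cells -1.69 (-3.30 to -0.30) and -1.27 (-2.13 to -0.42). Trdc cells made up 3.19% and 3.41% of the Cd8b1-positive cells, and 12.7% and 12.5% of all T cells.

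Klre1, which encodes a lectin receptor of natural killer cells, marked 46.9% of T cells in the library labelled Irf4-/- and 19.3% in the library labelled WT. Of the 18 Trbv segments with at least 100 UMIs, the interval of the share ratio covered 0 for 18 and 17, and of the 35 such Trav segments for 21 and 25. Trbv levels stood at log2 ratios of 0.01 (-0.08 to 0.09) and -0.08 (-0.17 to 0.01). By CPM, 0 Trbv and 2 Trav segments were over 1.5-fold higher in both libraries, against 1.87% of all genes, and 1 Trbv and 2 Trav segments were lower, against 3.0%.

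Trav15-1-dv6-1 (-1.28 and -1.33), Trav15-2-dv6-2 (-1.21 and -0.59) and Trav13-4-dv7 (-1.07 and -1.13) were lower in share in Klre1-positive cells of both libraries. For 2 of these 3 the interval lay below 0 in both libraries. Without Trdc cells the ratios of Trav13-4-dv7 were -0.42 (-1.13 to 0.27) and -0.25 (-1.18 to 0.59), and those of Trav15-1-dv6-1 were -0.45 (-1.80 to 0.85) and -1.01 (-2.73 to 0.37). The ratio of Trav15-2-dv6-2 turned to 1.30 and 0.32, with intervals that cover 0. Trdc cells were 8.81% and 8.71% of Klre1-positive cells.

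Fcer1g, which encodes a signalling adaptor of innate lymphocytes, marked 41.7% and 24.3% of T cells, and 60.1% and 36.9% of these were also Klre1-positive. Trbv levels were slightly higher in them, at log2 ratios of 0.26 (0.17 to 0.34) and 0.23 (0.14 to 0.31). No Trbv segment differed by over 1.5-fold in share in the same direction in both libraries. By CPM, 0 Trbv and 4 Trav segments were over 1.5-fold higher, against 4.93% of all genes, and 0 Trbv and 1 Trav segment were lower, against 2.12%. By share the lower one was Trav13-4-dv7, at -0.91 (-1.25 to -0.57) and -0.94 (-1.35 to -0.54) in log2 ratio. Without Trdc cells it stood at 0.47 (-0.22 to 1.17) and -0.57 (-1.53 to 0.30).

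**Figure D5:**
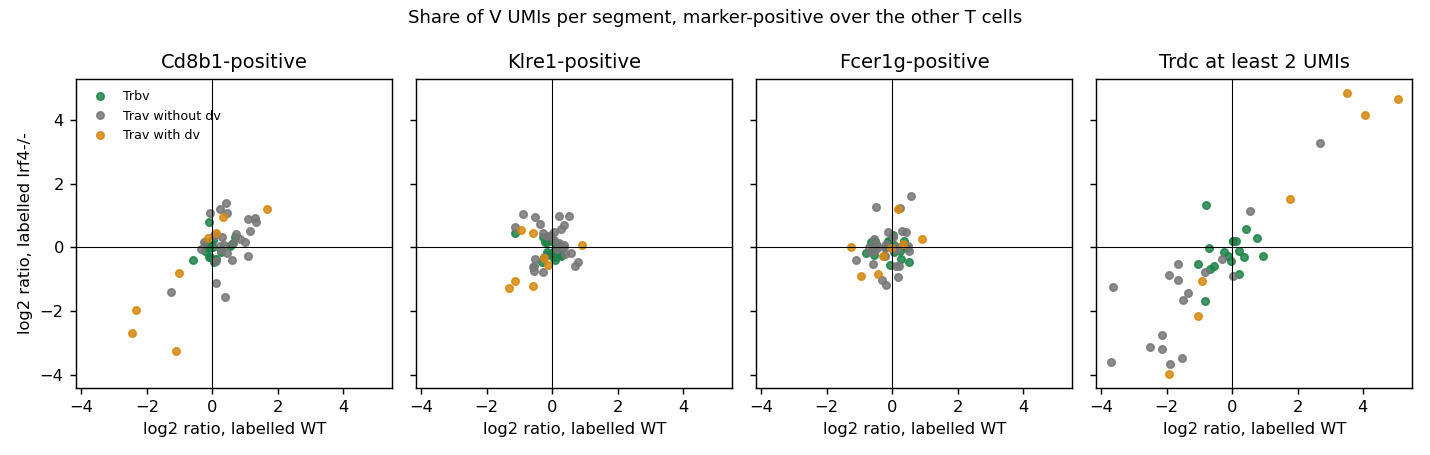
Log2 ratio of each segment's share, marker-positive over the other T cells, in the library labelled WT (horizontal) and in the library labelled Irf4-/- (vertical), for the 18 Trbv and 35 Trav segments with at least 100 UMIs; 11 Trav segments with no UMI in the Trdc cells of a library are not drawn in the last panel. Trbv points gather around 0 in the first 3 panels, and the dv segments with high ratios in the last panel are those low in the Cd8b1 panel.

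The invariant chains of innate-like T cells were rare or not countable here. Invariant natural killer T cells pair Trav11 with Traj18, and mucosal-associated invariant T cells pair Trav1 with Traj33. Trav11 and Trav11d together had 7 UMIs in 5 cells and 4 UMIs in 3 cells, 0.136% (0.0548 to 0.280) and 0.0621% (0.0169 to 0.159) of Trav UMIs. Because the pair shares every window, these counts say little about how many such cells there are. Traj18 and Traj33 had no UMI. Zbtb16, the transcription factor of both lineages, had a UMI in 0.662% and 0.522% of T cells.

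Of the 19 cells with Trav1 in the library labelled WT, 16 had a Cd8b1 UMI and none a Zbtb16 UMI, and of the 5 in the library labelled Irf4-/- 2 had a Cd8b1 UMI. The beta segments that commonly pair with the invariant chains took ordinary shares: Trbv13-2 8.41% and 8.90%, Trbv29 4.63% and 4.07%, Trbv13-3 4.06% and 4.47%, Trbv1 7.97% and 7.39%, and Trbv19 6.40% and 5.82%.

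Alpha and beta segments combined widely. A single leading Trav and a single leading Trbv could be named in 1056 and 1240 cells, which formed 561 and 650 different pairs, of which 323 and 371 were seen in 1 cell. The most frequent pair in the library labelled Irf4-/- was Trav3-3 with Trbv12-2 in 13 cells (1.23%, 0.657 to 2.10). The same pair was found in 11 cells of the WT library (0.887%, 0.444 to 1.58), as was Trav16 with Trbv3. These pairs join segments that are among the most used of each chain.

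More than 1 segment of a chain was often seen in a cell. Among the 1103 and 1193 cells with at least 2 Trbv UMIs, 23.8% (21.4 to 26.5) and 28.0% (25.5 to 30.6) had UMIs of more than 1 Trbv segment. Among the 1183 and 1457 cells with at least 2 Trav UMIs, 36.4% (33.7 to 39.2) and 35.7% (33.2 to 38.2) had more than 1 Trav segment. In cells with exactly 2 UMIs of the chain, which compares both chains at 1 depth, the shares were 18.7% and 21.4% for Trbv and 28.1% and 29.9% for Trav. The alpha share was thus above the beta share in each library, and the intervals do not overlap (16.0 to 21.7 against 24.5 to 31.9, and 18.7 to 24.4 against 26.7 to 33.2). A stricter count required 2 UMIs of each segment, among the cells with enough UMIs of the chain for 2 such segments. There the shares were 11.7% and 16.4% for Trbv and 19.8% and 14.7% for Trav. The order thus turned in the WT library, on a smaller set of cells and without intervals given here.

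Cells with more than 1 Trbv segment were deeper, with medians of 11743 and 8900 UMIs against 10840 and 7549 in those with 1, and the part of joined barcodes in these shares was not tested. Of cells with 2 Trbv segments, 4.03% and 6.19% held 2 of the same family, and of cells with 2 Trav segments 3.61% and 4.58%. The commonest beta combination was Trbv12-2 with Trbv13-2, in 16 and 12 cells. For alpha it was Trav3-3 with Trav9-4 in 8 cells of the library labelled Irf4-/-, and Trav3-3 with Trav5-4 in 9 cells of the library labelled WT.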

How the data were processed

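Single-cell 3' libraries of sorted mouse bone marrow NKP cells were analysed, 1 per genotype. The deposited values are UMI counts per gene and barcode, whole numbers that the file headers credit to Cell Ranger 6.1.1. The submitters' processing notes name mm10, and no source used here names the annotation release. All 163 member IDs matched GENCODE M21 (GRCm38), which gave positions, gene types and sequences. Library totals were 82599767 and 95031071 UMIs.

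Barcodes were kept with at least 500 genes, at least 1000 UMIs and under 10% mitochondrial UMIs. No doublet caller was run. Counts were summed per library and cell group with Python 3.11.15, numpy 2.4.6, scipy 1.17.1 and pandas 2.3.3. A segment's share is its UMIs as a percent of the UMIs of its chain. Levels have exact Poisson intervals, shares Clopper-Pearson intervals and log2 ratios exact conditional binomial intervals, all at 95%. They treat UMIs as independent, which UMIs of 1 cell are not, so cells were also counted once by their leading segment, ties left out. Ratios needed 20 UMIs over both libraries, and 1.5-fold was the fixed size limit. Ratio, interval and thinning functions were tested on simulated data.

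Named segments were the 10 largest of each chain, dv segments, invariant chains and their partners, the 5 highest and 5 lowest library ratios with at least 100 UMIs, and the 3 highest and 3 lowest ratios per cell subset with at least 50 UMIs; segments outside the rule are named where a count or pattern singles them out, after their values were seen. The members and lists were chosen with earlier results of these data known. Alternatives changed the cell gate, barcode filter, denominator, depth, minimum, subset thresholds, Trdc cells, the deepest 2% of cells and the joining of d and n copies.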

Additional observations from a re-analysis of the deposited data

Results flagged for a closer look

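With all T cells included, Trav3-4 was the 1 segment whose share in Klre1-positive over other T cells had intervals on opposite sides of 0 in the 2 libraries. The log2 ratio was 1.06 (0.34 to 1.82) in the library labelled Irf4-/-, from 49 UMIs against 25, and -0.90 (-1.92 to -0.01) in the library labelled WT, from 12 UMIs against 74. The difference itself was not tested. Its UMIs came from 31 and 39 cells with up to 8 and 7 in 1 cell, and counting each cell once gave 1.36 (0.10 to 2.76) and -0.58 (-2.32 to 0.81). Without Trdc cells, Trav7-5 and Trav16n had intervals on opposite sides of 0 as well. Trav7-5 stood at -0.64 (-1.25 to -0.03) and 0.70 (0.10 to 1.28), and Trav16n at -0.39 (-0.78 to -0.002) and 0.49 (0.11 to 0.86).

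V transcripts also appeared in cells that the T cell gate left out because they held Cd79a beside CD3. These 203 and 273 cells had 254 and 344 Trav and Trbv UMIs, 0.855 and 1.15 per 10000 UMIs, and a V UMI in 61.6% and 57.1% of cells. Their median depths were 12780 and 9529 UMIs, above those of the T cells, and B cells without CD3 had 4 and 1 V UMIs.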

How the results depend on the processing

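With 1 library per genotype no difference has a replicate check, and shares of segments under about 100 UMIs rest on few cells. No paired analysis was possible because each group holds 1 library. The log2 ratios of chain levels between libraries stayed below 0 under all 8 alternatives for Trbv, for Trav without dv and for Trav dv, which moved from -0.08 to -0.23 after thinning to 2000 UMIs. Segments past 1.5-fold numbered 2 for Trbv and 10 for Trav. For Trbv they were 1 without Trdc cells, 1 with each cell counted once, 1 with a 5 times higher minimum and 6 without a minimum, and for Trav 1 with the higher minimum, 24 without one and 4 with d and n copies joined. Trav4-4-dv10 turned from -0.36 to 0.0524 with each cell counted once, and Trav9-4 from 0.64 to -0.41 after thinning.

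Cells with more than 1 segment, requiring 2 UMIs of each, were 11.7% and 16.4% for Trbv and 19.8% and 14.7% for Trav. The order of the chains thus turned in the library labelled WT, among only those cells with enough UMIs for 2 such segments. After thinning, cells with more than 1 segment were 14.1% and 15.0%, and 33.3% and 27.9%. At exactly 2 UMIs, an alternative added after seeing the data, they were 18.7% and 21.4%, and 28.1% and 29.9%. The dv share in Trdc cells was 82.4% and 79.7% after thinning, 76.1% in the library labelled Irf4-/- with each cell counted once, and 76.4% in the library labelled WT at 3 Trdc UMIs.

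Without Trdc cells, Trav13-4-dv7 turned in Cd8b1-positive cells to 0.17 and 1.17 and in Fcer1g-positive cells of the library labelled Irf4-/- to 0.47, and Trav15-2-dv6-2 in its Klre1-positive cells to 1.30. Trav14n-3 in Cd8b1-positive cells of the library labelled WT went from 1.32 to 0.43 at 2 Cd8b1 UMIs. The causes were not tested beyond the alternatives' own construction.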
